A study of Saccharomyces cerevisiae with 2 samples.

Results

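The proteasome of budding yeast was followed through the genes of 32 of its subunits and through RPN4, the gene of the transcription factor that activates them. The 33 genes were taken by their systematic names from a table of 6207 gene features, and each was represented by 1 feature. They comprised 7 genes of the 20S alpha ring, 7 of the 20S beta ring and 6 ATPases of the 19S base. The others were 4 further subunits of the base, among them the ubiquitin receptors RPN10 and RPN13, 8 subunits of the 19S lid, and RPN4. SEM1, a small lid subunit, was not among them and was not analysed here.

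The 26S proteasome degrades proteins that carry ubiquitin chains. The 20S core is a barrel whose alpha rings gate the entrance and whose beta rings hold the peptidase sites. The 19S particle recognises ubiquitin, removes it in the lid and unfolds the substrate with the ATPases of its base. In yeast, Rpn4 binds a shared promoter element of the subunit genes, and is itself degraded rapidly by the proteasome, so that the subunit genes are known as a group that can be induced together when proteolysis is limiting.

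Two-colour arrays were used, on which Cy3- and Cy5-labelled cDNA of Saccharomyces cerevisiae compete for the same spots. The first comparison set a strain lacking MSG5, a phosphatase of mitogen-activated protein kinases, against the wild type, labelled as BY4741 with no treatment. The second comparison set the msg5 deletion with alpha factor, the mating pheromone, against the msg5 deletion without it, so that both of its RNAs lacked MSG5. All cultures were in YPD at 24 °C and 200 rpm and were diluted to an optical density of 0.2. In the first comparison time was counted from 2 h 30 min of growth and the cells were taken at 2 h. In the second it was counted from 4 h of growth and the cells were taken at 90 min. The treated culture received alpha factor for that time, at 50 mM by its label, a unit that could not be checked. No wild-type culture with alpha factor was analysed here, so a response to the pheromone that needs the deletion cannot be told apart from one that does not. The labels do not say how many clones of the deletion were used.

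The authors condensed 4 arrays, made with swapped dyes from 2 biological samples, into the log2 ratio of a feature in each comparison. Replicate spread was therefore not available, and no difference was tested. The number of arrays limits the precision. Values were present for 5308 gene features in the deletion comparison and 4877 in the alpha factor comparison. MSG5 was at -2.51 in the deletion comparison, and FIG1, AGA1, FUS1 and BAR1, genes of the pheromone response, were between 0.65 and 3.33 there and between 0.55 and 2.38 with alpha factor. Positive values stand for more transcript in the deletion, by the title of that sample. With alpha factor they likely stand for more transcript in treated cells, by the layout of the channels and the sign of these 4 genes. The base of the logarithm is 2 by the values in the deletion comparison and less certain in the other, so folds with alpha factor hold only for base 2.

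Proteasome genes stayed close to the middle of all features in both comparisons. Their median log2 ratio was -0.08 in the deletion, against -0.07 for all other features, and 0.02 with alpha factor, against -0.05. The members' mean with alpha factor was -0.04, below 0 where the median was above it. No member reached a change of 1.5-fold in either comparison. In the deletion the members ran from -0.44 (PUP3) to 0.17 (RPT6), and with alpha factor from -0.45 (RPT5) to 0.21 (RPN11).

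**Figure D1:**
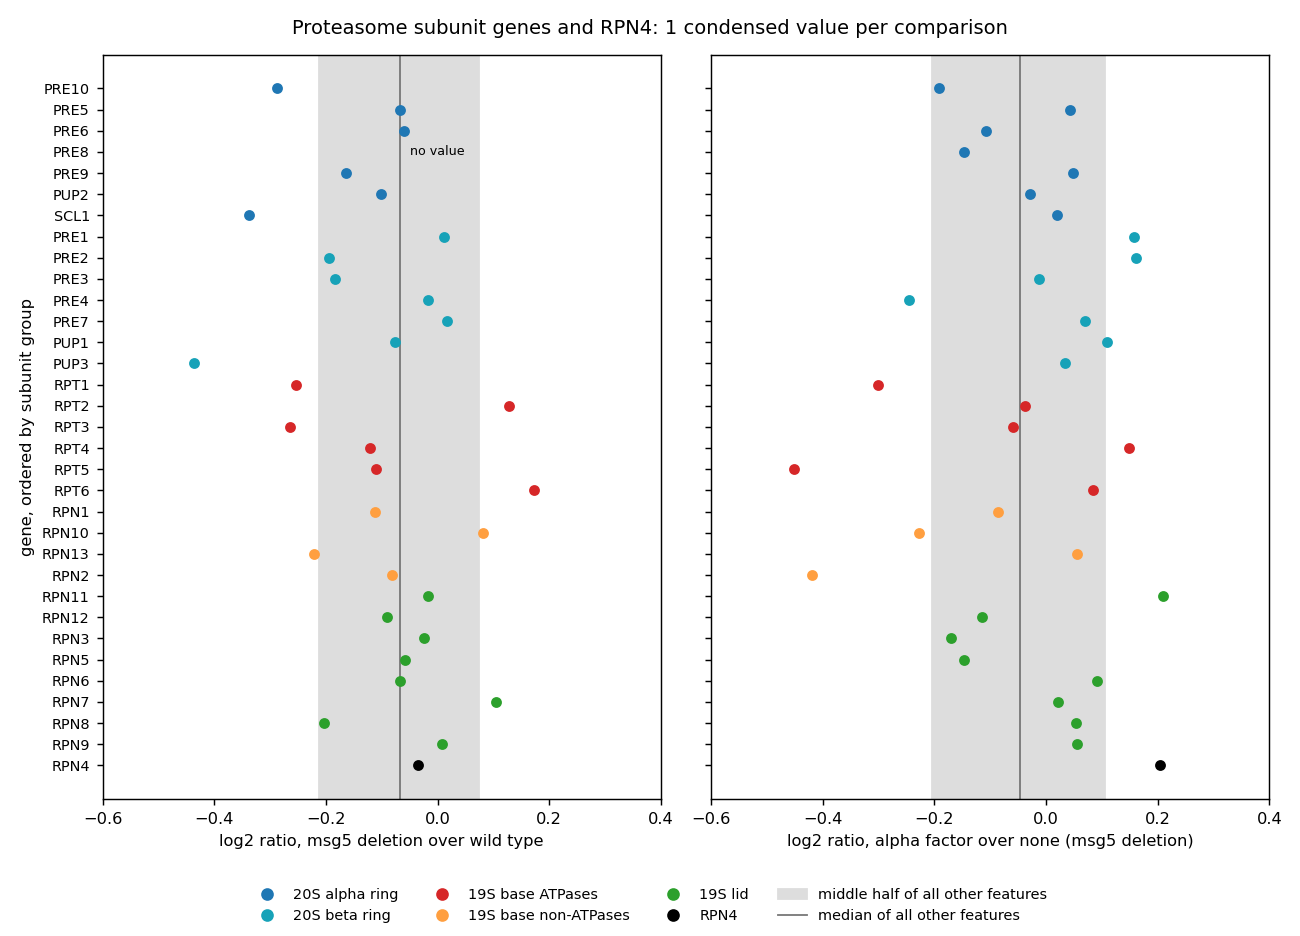
Log2 ratio of each of the 33 genes (rows, coloured by subunit group) in the deletion comparison on the left and the alpha factor comparison on the right, with the interquartile range of all other features in grey and their median as a line. Each point is 1 condensed value with no error bar; PRE8 had no value in the deletion comparison, and most points lie inside or near the grey band.

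In the deletion comparison 0 of 32 measured members were changed at least 2-fold in either direction, where 1.11% of all features were. At 1.5-fold the members' count was again 0, against 6.07% of all features. At 1.2-fold, a threshold chosen after the values were seen, 0 members were higher and 4 were lower, against 8.87% and 19.2% of all features. The 4 genes were PUP3, SCL1, PRE10 and RPT3. After the column had been centred on its median only PUP3 and SCL1 passed 1.2-fold, and relative to genes of similar length only PUP3 did. The shares of all features after these steps were not computed, so the smaller counts are not a result about the members. Below the median of all features lay 17 members, where 49.6% of all features did.

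With alpha factor 0 of 33 members were changed 2-fold, against 0.779% of all features, and 0 were changed 1.5-fold, against 5.13%. At 1.2-fold, 0 members were higher and 3 were lower, RPN2, RPT1 and RPT5, against 9.70% and 18.2% of all features. Centring left RPN2 and RPT5 past that threshold, and the share of all features after centring was not computed. Below the median of all features lay 13 members, where 50.0% of all features did. Each of the counts without centring was below or close to the share of all features.

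The members were also spread less widely than the rest of the table. Their interquartile range was 0.17 in the deletion and 0.22 with alpha factor, against 0.29 and 0.31 for all other features. Their SD was 0.14 and 0.17, against 0.31 and 0.30. Values were missing for 3.03% of members and 14.5% of other features in the deletion, and for 0% and 21.5% with alpha factor. Spot intensities were not used here, so whether bright spots go with the narrow spread was not tested.

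**Figure D2:**
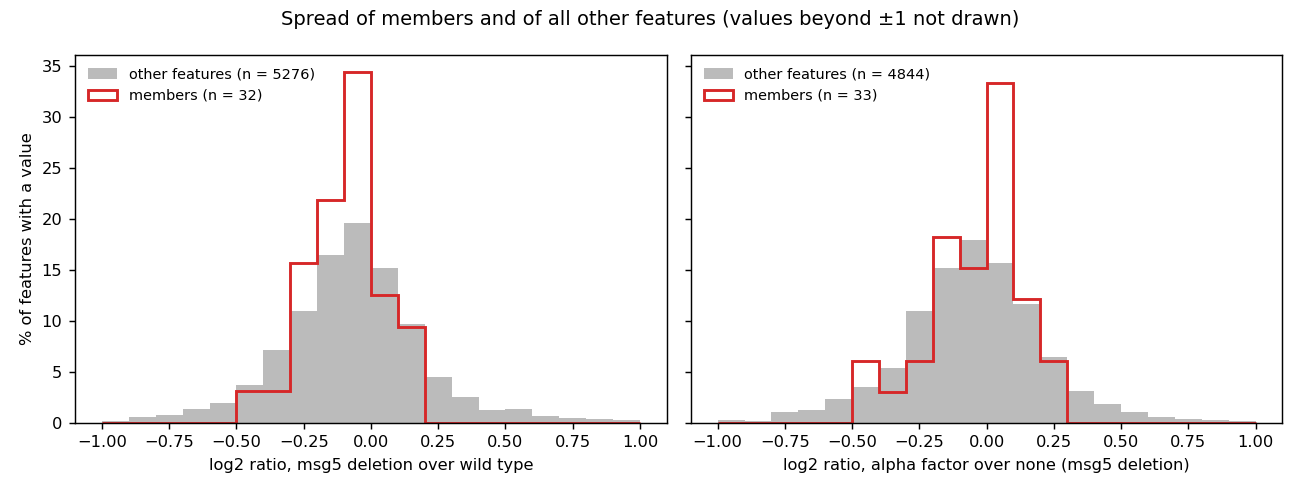
Percentage of features per interval of 0.1 in log2 ratio, for members (red outline, 32 in the deletion and 33 with alpha factor) and for all other features (grey, 5276 and 4844). The red outline ends between -0.5 and 0.3 in both panels, whereas the grey distribution reaches beyond the drawn range of -1 to 1.

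A rough scale for these values came from genes to which several features matched by name. Whether such features carry the same probe is unknown. The highest and lowest feature of a gene differed by a median of 0.20 over 25 genes in the deletion and 0.29 over 24 genes with alpha factor. The highest such gaps were 0.61 and 0.68. In the deletion 28 of 32 members lay closer than the median gap to the median of all features. With alpha factor 31 of 33 did, against 62.6% and 77.9% of all features. The control feature named 3XSSC stood at -0.01 in the deletion and 0.22 with alpha factor, and the one named Arabidopsis at 0.19 and 0.12. The highest members of both comparisons were no farther above 0 than the highest control.

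RPN4 (YDL020C), the activator of the subunit genes, had a log2 ratio of -0.035 in the deletion and 0.20 with alpha factor. The first lay at percentile 56.3 of all features and the second at percentile 86.3. The second corresponds to a 1.15-fold higher level in treated cells. It lay 0.25 above the median of all other features, less than the median gap of 0.29 between features of the same gene. Relative to features of similar gene length it was 0.34, which passes 1.2-fold. The share of all features past 1.2-fold after that step was not computed. The gap comes from values without that step, so 0.34 is not set against it. The 32 subunit genes, the known targets of Rpn4, had a median of 0.00 with alpha factor and -0.08 in the deletion.

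The alpha ring forms the outer layers of the core and its entrance. SCL1 (YGL011C) was the lowest of its genes in the deletion at -0.34, a 1.26-fold lower level, and stood at 0.02 with alpha factor. PRE10 (YOR362C) was at -0.29 and -0.19, the lowest of the ring with alpha factor. PRE9 (YGR135W), the subunit of the core that yeast can live without, was at -0.16 and 0.05. The remaining genes lay nearer to the median of all features in the deletion, with PUP2 (YGR253C) at -0.10, PRE5 (YMR314W) at -0.07 and PRE6 (YOL038W) at -0.06, and stood with alpha factor at -0.03, 0.04 and -0.11. PRE8 (YML092C) had a value only with alpha factor, -0.15. Over the ring the median was -0.13 in the deletion, with 4 of 6 genes below the median of all features, and -0.03 with alpha factor, with 3 of 7 below it.

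The beta ring carries the peptidase sites. Its catalytic subunits are PRE3, of the caspase-like site, PUP1, of the trypsin-like site, and PRE2, of the chymotrypsin-like site. In the deletion comparison PRE3 (YJL001W) was at -0.18, PUP1 (YOR157C) at -0.08 and PRE2 (YPR103W) at -0.19. With alpha factor they were at -0.01, 0.11 and 0.16. The median of all features was itself below 0, at -0.07 in the deletion and -0.05 with alpha factor. PUP1 was at percentile 48.1 of all features in the deletion and 75.5 with alpha factor. If the alpha factor ratio runs the other way, PUP1 would be at -0.11 and PRE2 at -0.16, below 0 in both. PRE2 was at percentile 27.5 of all features in the deletion and 81.9 with alpha factor.

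Among the beta subunits without a peptidase site, PUP3 (YER094C) had the lowest value of all members in the deletion, -0.44, or 1.35-fold lower, at percentile 7.07 of all features. With alpha factor PUP3 was at 0.03. PRE1 (YER012W) was at 0.01 and 0.16 and PRE7 (YBL041W) at 0.02 and 0.07, above the median of all features in both comparisons. PRE4 (YFR050C) was also above that median in the deletion, at -0.02. With alpha factor it was below it at -0.24, the lowest gene of the core. The ring had a median of -0.08 in the deletion and 0.07 with alpha factor, where 6 of 7 genes lay above the median of all features. Relative to genes of similar length, the distance of that median from all other features went from 0.12 to 0.05.

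The 6 ATPases of the base form a ring that unfolds substrates and opens the core, and their genes differed among themselves more than those of any other group by SD, 0.19 in the deletion and 0.23 with alpha factor. RPT6 (YGL048C) was the highest member in the deletion at 0.17, at percentile 85.8, and stood at 0.08 with alpha factor. RPT2 (YDL007W), whose product controls the gate of the core, was at 0.13 and -0.04. At the other end RPT3 (YDR394W) was at -0.26 and -0.06, and RPT1 (YKL145W) at -0.25 and -0.30, low in both comparisons.

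RPT5 (YOR117W) was at -0.11 in the deletion and had the lowest value of all members with alpha factor, -0.45, a 1.37-fold lower level at percentile 7.09 of all features. RPT4 (YOR259C), of the same ring, was at -0.12 and 0.15. With alpha factor the ATPase genes thus covered 0.60 on the log2 scale, from RPT5 to RPT4. The highest gap between features of the same gene was 0.68 there. The ATPases are present in the base in equal numbers, but a ratio of treated over untreated cells does not measure such numbers. The medians of the ATPase genes were -0.11 in the deletion and -0.05 with alpha factor, within 0.05 of those of all other features.

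RPN1 and RPN2 encode the large scaffold subunits of the base, and RPN10 and RPN13 encode ubiquitin receptors. RPN1 (YHR027C), a docking site for shuttle factors, was at -0.11 in the deletion and -0.09 with alpha factor. RPN2 (YIL075C), which binds Rpn13, was at -0.08 and -0.42, the second lowest member with alpha factor at percentile 8.34 of all features. The scaffold genes were alike in the deletion. With alpha factor they differed by more than the median gap between repeated features, but by less than the highest such gap, 0.68. RPN10 (YHR200W) was at 0.08 and -0.23 and RPN13 (YLR421C) at -0.22 and 0.06, an opposite order in the comparisons that holds only if the alpha factor ratio is treated over untreated. With that sign turned, RPN10 would be at 0.23 and RPN13 at -0.06, in the same order as in the deletion.

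The lid holds RPN11, the deubiquitinase, and its partner RPN8. RPN11 (YFR004W) was at -0.02 in the deletion and was the highest member with alpha factor, at 0.21 or 1.16-fold higher and at percentile 86.9 of all features. RPN8 (YOR261C) was the lowest lid gene in the deletion at -0.20 and stood at 0.05 with alpha factor. RPN7 (YPR108W) was the highest lid gene in the deletion at 0.10, with 0.02 in the other comparison. All 3 genes were within 1.2-fold of no change in both comparisons.

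The remaining lid genes of the list varied less in the deletion than with alpha factor. There RPN3 (YER021W) was at -0.02, RPN5 (YDL147W) at -0.06, RPN6 (YDL097C), which also touches the core, at -0.07, RPN9 (YDR427W) at 0.01 and RPN12 (YFR052W) at -0.09. With alpha factor the same genes were at -0.17, -0.15, 0.09, 0.06 and -0.11. The lid had the smallest SD of the 5 subunit groups in the deletion, 0.09, and its medians were -0.04 and 0.04. The mean of the lid with alpha factor was -0.0003.

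Set side by side, the comparisons placed the members in different orders. With the alpha factor ratio taken as treated over untreated, the genes with the largest shift upward from the deletion to the alpha factor value were PUP3 (0.47), SCL1 and PRE2 (0.36 and 0.35), and those with the largest shift downward were RPT5 (-0.34), RPN2 (-0.34) and RPN10 (-0.31). RPT1 (-0.25 and -0.30) and PRE10 (-0.29 and -0.19) had low values in both. Between the comparisons Pearson's r across the 32 genes was 0.07, with a Spearman's rho of 0.13, against 0.19 and 0.11 across 4586 other features. Genes are not independent replicates, and these values are given as a description. Below the deletion median and above the alpha factor median lay 10 of 32 members, where 22.7% of all features did. The comparisons are ratios of different kinds, the deletion over the wild type and treated over untreated deletion cells. The cultures also had other growth and collection times. A shift between the values of a gene is therefore a difference between these ratios and not a change in its transcript. Turning the sign of the alpha factor ratio changes which genes shift most: RPT5 (0.56), RPT1 (0.56) and RPN2 (0.50) would then have the largest upward shifts, and RPT6 (-0.26), RPN11 (-0.19) and RPN4 (-0.17) the largest downward ones. The count of 10 members would become 7, against 25.4% of all features.

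**Figure D3:**
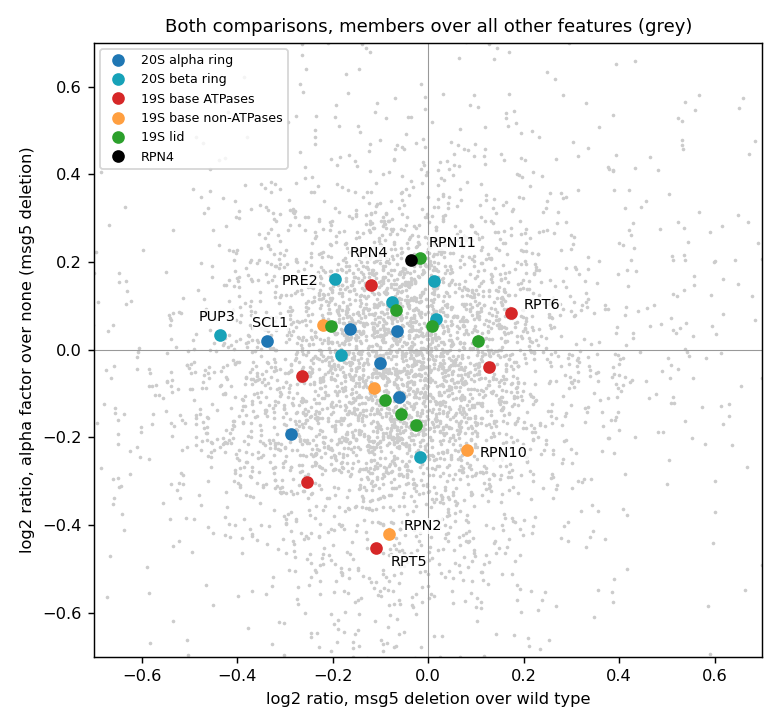
Log2 ratio in the deletion (horizontal) against log2 ratio with alpha factor (vertical) for 32 members, coloured by subunit group, over all other features in grey within 0.7 of 0. The members form a cloud around the centre of the grey points (r = 0.07), with RPT5 and RPN2 at its lower edge and PUP3 at its left edge.

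Alpha factor values went with gene length over the whole table, and this touched the members. Across 33 members Spearman's rho between length and value was -0.22, as across 4589 other features (-0.22), whereas in the deletion it was 0.15 and 0.04. The shortest 11 members, 10 genes of the core and RPN13, had a median of 0.03 with alpha factor, the middle 11 a median of 0.05 and the longest 11, which include RPN1, RPN2 and 4 of the ATPases, a median of -0.09. Members were shorter than other features, with a median of 867 bp against 1203 bp. When each value was taken relative to features of similar length, in 10 groups, the members' median lay 0.0068 above that of all others, where it lay 0.065 above without that step. RPT5 and RPN2 stayed the lowest members after the step, at -0.34 and -0.38. Lengths are genomic spans in the R64 assembly, and whether they match the array's design is unknown.

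**Figure D4:**
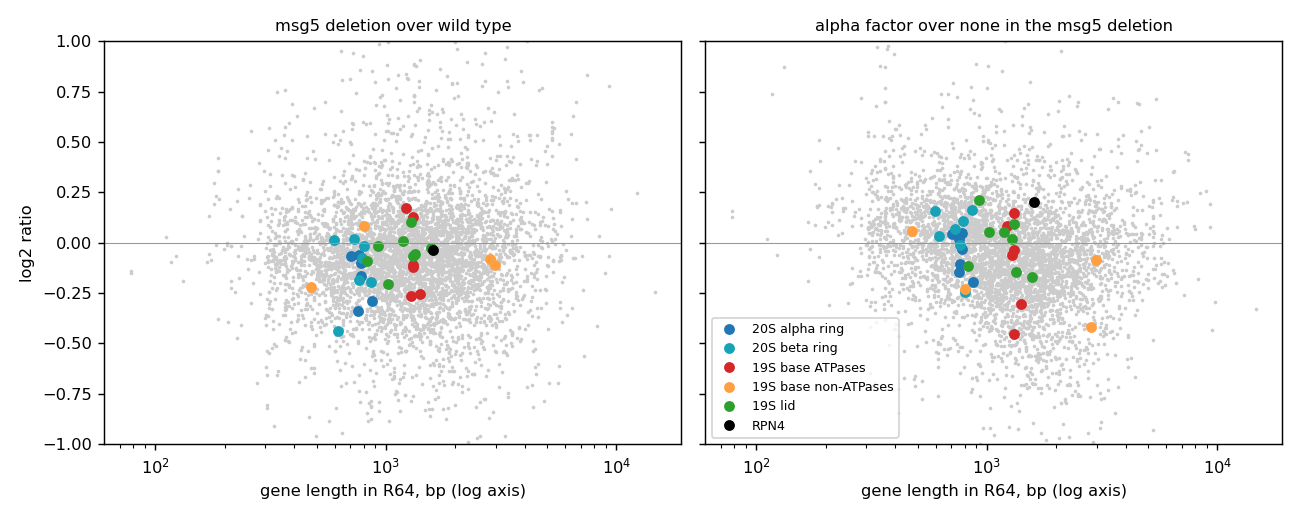
Log2 ratio against gene length in bp (log axis) for members, coloured by subunit group, and all other features in grey, in the deletion (left) and with alpha factor (right), with values beyond -1 and 1 not drawn. With alpha factor the grey cloud and the members slope down with length (rho -0.22 each); RPN2, among the longest members, is also among the lowest.

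Genes around the proteasome were followed in 5 further lists. Of 16 genes of assembly factors and accessory proteins with a feature, 14 had values in each comparison. None of them reached 1.5-fold, beside 6.07% of all features in the deletion and 5.13% with alpha factor. The medians were -0.04 in the deletion and 0.09 with alpha factor. In the deletion they ran from IRC25, an assembly chaperone of the core, at -0.41 to UBP6, the deubiquitinase bound to Rpn1, at 0.30. With alpha factor they ran from SPG5 at -0.20 to STS1, of proteasome localisation, at 0.23. UMP1, the maturation factor of the core, was at 0.18 and 0.05.

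Genes of ubiquitin conjugation and delivery had medians of -0.03 over 16 genes in the deletion and -0.05 over 15 with alpha factor. Of the 16 genes only UFD4, a ubiquitin ligase, was past 1.5-fold in the deletion, at -0.62, beside 6.07% of all features. It had no value with alpha factor. The highest gene in the deletion was UBI4, the polyubiquitin gene, at 0.26. With alpha factor DSK2, a shuttle factor, was the lowest at -0.44 and DOA1, a partner of Cdc48, the highest at 0.37. None of the 15 genes reached 1.5-fold there, beside 5.13% of all features.

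The genes known to act on RPN4 or on its product lay low in the deletion, although RPN4 did not. The list had a median of -0.35 over 7 genes, against -0.07 for all other features, and 6 of the 7 lay below the median of all features. UBR2, the ligase that marks Rpn4 for degradation, was at -0.61. It was the only 1 of the 7 genes past 1.5-fold, beside 6.07% of all features. MUB1, the partner of Ubr2, was at -0.37. Among the transcription factors that can activate RPN4, PDR1 was at -0.54, PDR3 at -0.35, HSF1 at -0.22 and YAP1 at -0.20. RAD6, the conjugating enzyme that works with Ubr2, was at -0.01. With alpha factor the list had a median of 0.06 over 6 genes, from YAP1 at -0.13 to HSF1 at 0.21. None of them reached 1.5-fold there, beside 5.13% of all features. With 1 value per gene, the difference of this short list from the rest was not tested.

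Heat shock proteins and chaperones, the other part of protein quality control, had a median of 0.10 over 23 genes in the deletion, where 18 lay above the median of all features. HSP30, a membrane protein of stress, at 1.19 and SSE2, a nucleotide exchange factor, at 1.12 were past 2-fold, beside 1.11% of all features. HSP42 at 0.83 was past 1.5-fold. HSC82 was the lowest at -0.22. With alpha factor the median was -0.04 over 22 genes, from SSE1 at -0.47 to AHA1, a cochaperone of Hsp90, at 0.47. In the deletion 3 of 23 chaperone genes and 0 of 32 proteasome genes were past 1.5-fold, beside 6.07% of all features, and the difference between the lists was not tested.

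The CCT chaperonin, another ring-shaped complex, held its 8 genes within 0.08 of each other in the deletion, from -0.18 (CCT8) to -0.10 (TCP1), with a median of -0.13. With alpha factor its median was -0.14, from CCT6 at -0.27 to TCP1 at 0.33. None of its genes reached 1.5-fold in either comparison, beside 6.07% of all features in the deletion and 5.13% with alpha factor. At 1.2-fold 0 passed in the deletion, beside 8.87% of all features higher and 19.2% lower. With alpha factor TCP1 passed upward and CCT6 and CCT4 downward, beside 9.70% and 18.2% of all features. The range over 8 chaperonin genes was 0.08 in the deletion and 0.61 with alpha factor. TCP1 alone made the latter wide, since the next highest gene, CCT7, was at -0.08. Over the more numerous proteasome genes the range was 0.61 and 0.66. The SD with alpha factor was 0.19 for the chaperonin, TCP1 included, and 0.17 for the proteasome genes.

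**Figure D5:**
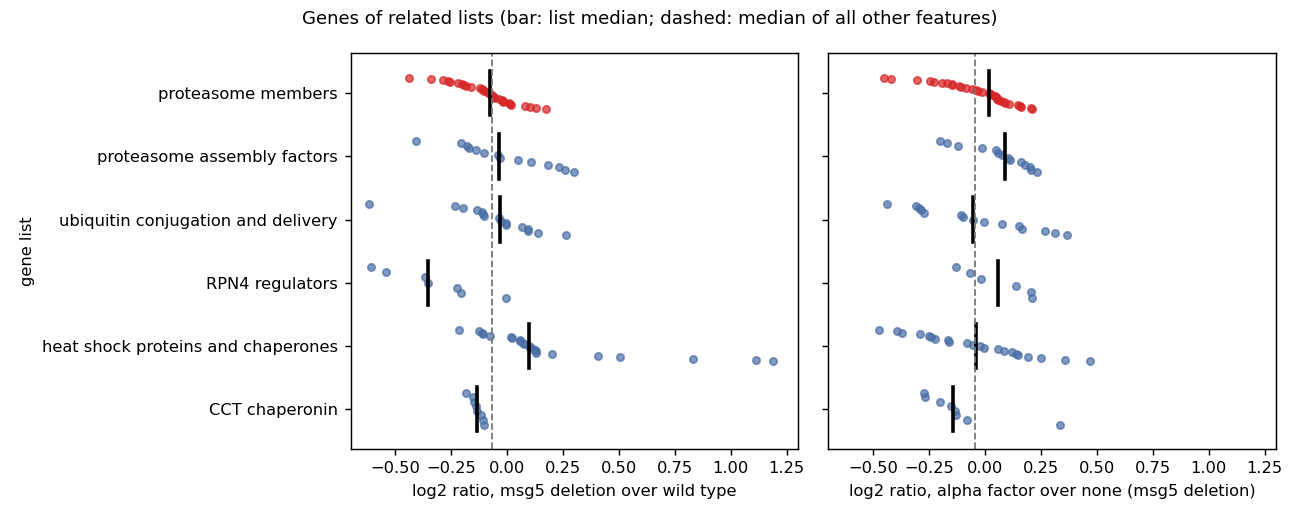
Log2 ratios of single genes (points) in the proteasome list (red) and 5 further lists (blue) for the deletion on the left and alpha factor on the right, with the list median as a black bar and the median of all other features dashed. The list of genes acting on RPN4 has its bar at -0.35 in the deletion, and the chaperone list reaches 1.19 there, whereas the proteasome points end at 0.17.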

How the data were processed

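The deposited table holds 1 log2 ratio per feature and comparison. Per the labels, images were segmented with GenePix Pro 5.0, and per the series' design text the authors condensed 4 arrays into each value. The sources used here do not state the normalization, filters or build. The unit log2 was read from the values: 100% of the deposited deletion values fitted a ratio with 3 decimals taken to log2, and no such grid held with alpha factor (7.98%).

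Of 6209 rows, 2 controls were left out, and 5711 of 6207 gene features matched the RefSeq R64 table, which gave names and lengths. Medians, counts and percentiles were computed in Python 3.11.15 with pandas 2.3.3 and scipy 1.17.1, with no test. Code was tested on simulated data. That test accepted errors larger than the distance of the members' median from all other features in either comparison, so it does not check distances that small. Alternatives were centring, a running median of 101 features in table order, medians within 10 groups of gene length, the mean, other member sets, the turned sign and other log bases.

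Members and lists were chosen with earlier results of these data known. Genes named by rule were RPN4, the 5 highest and 5 lowest members per comparison, the 3 largest shifts each way and, in other lists, genes past 1.5-fold or else the extremes. All other members and the rest of the list of genes acting on RPN4 were added for completeness. Features of the same gene were averaged in the further lists. The search for the Rpn4 binding element in promoters was not run, since no promoter sequence was used here.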

Additional observations from a re-analysis of the deposited data

How the results depend on the processing

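The distance between the members' median and that of all other features was -0.01 in the deletion and lay between -0.04 and -0.01 under every alternative run for it. With alpha factor it was 0.065, and it became 0.0068 after the gene length adjustment, 0.015 as a mean, -0.065 with the direction turned and 0.22 if the values are base 10 logarithms. The gene length adjustment also took the distance for the alpha ring from 0.017 to -0.045, for the beta ring from 0.12 to 0.054, for the ATPases from -0.0028 to 0.061, for the lid from 0.08 to 0.14 and for RPN4 from 0.25 to 0.34. At 1.2-fold, 4 members were past the threshold in the deletion, but 2 after centring or the feature order adjustment and 1 after the length adjustment. With alpha factor 3 were, but 2 after centring, and after the length adjustment the 3 were RPN2, RPT5 and RPN4. The shares of all features after these steps were not computed, so these counts are not set against the rest of the features. If the alpha factor values are base 10 logarithms, 3 members passed 2-fold, 8 passed 1.5-fold and 20 passed 1.2-fold, against 22.1%, 45.1% and 72.6% of all features. If they are natural logarithms, 2 passed 1.5-fold and 8 passed 1.2-fold, against 13.5% and 43.7%. The distance for the genes acting on RPN4 in the deletion, -0.29, lay between -0.31 and -0.29 under centring and the order and length adjustments. With alpha factor the length adjustment took the distance for ubiquitin conjugation and delivery from -0.0053 to 0.075 and for the CCT chaperonin from -0.095 to -0.011. The threshold of 1.2-fold, the adjustments of subunit groups and further lists, and the counts in other bases were chosen after seeing the data. The promoter motif alternatives were not run. No paired analysis was possible because each comparison holds 1 condensed value per gene.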
